A study of Mus musculus with 6 samples.

Results

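The genes described here are 32 genes of glycolysis and of the response to low oxygen, taken by name from a table of 41214 mouse genes. They include the main glucose transporter, the enzymes of the glycolytic steps, the enzymes that direct pyruvate, the oxygen sensors with the transcription factor HIF-1α (Hif1a), and 7 classical hypoxia target genes. All 32 names were found in the table. Total RNA was sequenced from cultured cells of mammary tumor explants that express ErbB2, in 3 libraries of CdGAP-depleted cells (shCdGAP) and 3 libraries of control cells (shCON). The product of Arhgap31, CdGAP, switches off the small GTPases Cdc42 and Rac1, and the series asks what depleting it with a short hairpin RNA does to these cells.

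Both groups share everything the labels give besides the hairpin. The explants come from NMuMG mouse mammary epithelial cells that carry Neu-NT, the activated rat ErbB2, and all 6 libraries were grown in a medium with serum, insulin and G418. The groups are told apart by the genotype label, since the cell type is given in the same words for every library. The labels name no animal, age or oxygen level, and they do not say whether each group is 1 clone or whether its libraries came from separate cultures. The p-values are therefore relative to a spread between libraries that may be technical only.

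Glycolysis splits glucose into pyruvate in the cytosol. Glucose enters through transporters such as GLUT1, is trapped by hexokinase, is committed by phosphofructokinase, and ends as pyruvate, which lactate dehydrogenase can turn into lactate. When oxygen is low, the prolyl hydroxylases EGLN1 and EGLN3 no longer mark HIF-1α for destruction by VHL, and HIF-1 raises transcription of most glycolytic genes together with targets such as Bnip3, Ndrg1 and Car9. ErbB2-driven mammary tumor cells are known for active glycolysis, and insulin is a known inducer of several of the same enzymes.

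HIF-1 binds a short core, ACGTG or GCGTG, and the start regions of some of the listed genes are given here to show where that core lies. The sequences are those of RefSeq on GRCm38.p6, from 250 bases before to 50 after the annotated start, written 5′ to 3′ along the gene, and capitals mark the core on either strand, so that CACGT and CACGC are the reverse complements. Slc2a1 and Pfkp passed the test, and Bnip3 and Ankrd37 varied strongly between libraries. The windows of Hk1, which also passed, are not printed. Its window at chr10:62340372-62340671 held 5 cores and that at chr10:62379859-62380158 held 0.
Slc2a1, chr4:119108495-119108794 (+): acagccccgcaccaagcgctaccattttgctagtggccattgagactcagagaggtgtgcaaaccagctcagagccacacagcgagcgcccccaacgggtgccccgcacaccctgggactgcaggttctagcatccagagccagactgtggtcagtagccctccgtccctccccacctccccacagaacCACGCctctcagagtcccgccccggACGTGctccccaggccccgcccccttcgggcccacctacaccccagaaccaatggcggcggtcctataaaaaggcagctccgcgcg
Pfkp, chr13:6648722-6649021 (-): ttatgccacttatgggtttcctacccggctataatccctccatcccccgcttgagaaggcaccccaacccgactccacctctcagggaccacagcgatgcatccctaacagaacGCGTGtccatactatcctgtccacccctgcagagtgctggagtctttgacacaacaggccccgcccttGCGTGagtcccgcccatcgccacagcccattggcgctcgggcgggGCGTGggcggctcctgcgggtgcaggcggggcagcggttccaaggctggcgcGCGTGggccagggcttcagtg
Bnip3, chr7:138909457-138909756 (-): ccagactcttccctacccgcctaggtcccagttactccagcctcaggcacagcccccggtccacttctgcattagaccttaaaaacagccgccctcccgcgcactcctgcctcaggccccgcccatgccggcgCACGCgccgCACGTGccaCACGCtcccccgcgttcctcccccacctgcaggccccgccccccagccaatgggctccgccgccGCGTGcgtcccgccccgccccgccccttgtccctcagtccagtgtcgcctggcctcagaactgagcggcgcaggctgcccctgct
Ankrd37, chr8:45999801-46000100 (-): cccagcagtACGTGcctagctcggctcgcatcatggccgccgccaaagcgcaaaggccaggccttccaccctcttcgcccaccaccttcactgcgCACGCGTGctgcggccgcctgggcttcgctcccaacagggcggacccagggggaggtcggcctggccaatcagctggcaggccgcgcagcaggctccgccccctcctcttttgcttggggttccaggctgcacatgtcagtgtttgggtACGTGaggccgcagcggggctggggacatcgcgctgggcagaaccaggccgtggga
The Slc2a1 window held 2 cores, at 61 and 36 bases before the start. The Pfkp window held 4 and the Ankrd37 window also 4, of which 2 overlap in 1 marked stretch. The Bnip3 window held 5, of which 2 lie in the E-box CACGTG, the site that Myc and its relatives also bind.

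The table of start regions held 31 of the 32 genes, with 44 windows in all, and did not list Ndrg1. At least 1 of the 2 cores was present in 36 of these 44 windows (81.8%), against 61.6% of the 12145 windows of tested genes and 43.8% of all 32851 windows. Taken singly, ACGTG was present in 54.5% of the windows of these genes, against 25.2% for tested genes and 19.6% for all windows. GCGTG was present in 56.8%, against 50.4% for tested genes and 32.4% for all, and the E-box CACGTG, which contains ACGTG, in 11.4%, against 9.82% and 7.15%. Windows of the same gene can overlap, as for Aldoa, Eno1 and Pfkm, and then count a core more than once. The 44 windows also include those of genes with too few reads to be tested, such as Eno2. No window of Gpi1, Tpi1 or Eno2 held either core, and these letters are a description of the windows, not evidence of binding.

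Sequencing depth ranged from 19176540 to 26824249 reads per library. Levels are given in FPKM, fragments per kilobase of transcript and unit of depth, which the authors had also scaled by size factors. Differences are on the log2(FPKM + 1) scale, shCdGAP minus shCON, which understates the change of genes near or below 1 FPKM. A gene is called changed when limma's adjusted p, by the Benjamini-Hochberg method over 13483 tested genes, is below 0.05. In bulk RNA, fewer cells with a transcript cannot be told apart from less transcript per cell.

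The knocked-down gene itself was low in all libraries. Arhgap31 stood at 0.149, 0.826 and 0.748 FPKM in the 3 shCdGAP libraries, against 1.19, 1.30 and 1.35 FPKM in the 3 shCON libraries. The groups did not overlap, and the log2 difference of -0.56 (SE 0.19) had an adjusted p of 0.0836, which was 0.0157 without shCdGAP replicate 1. That library stands apart: the correlation of its log2 levels was 0.948 with shCdGAP replicate 2 and 0.938 with replicate 3, against 0.996 between those 2 and 0.990 to 0.998 between the shCON libraries. Where leaving it out changes a call or the sign of a difference, or moves a fold by over 1.5 times, both values are given. Of the 7 luminal epithelial markers, Krt8, Krt18 and Krt19 were abundant, while Epcam was at 0 in shCdGAP and Elf5 and Esr1 were near 0 in all 6 libraries. In every library 3 of the 7 stayed under 1 FPKM. The 7 summed to 4000, 6218 and 6554 FPKM in shCdGAP and 3617, 5047 and 5064 FPKM in shCON. Single markers went in opposite directions in the authors' deposited DESeq2 table. There Cdh1 was higher in shCdGAP (log2 fold change 1.68, adjusted p 4.38e-13). Epcam (-4.30, adjusted p 1.35e-10) and Esr1 (-3.35, adjusted p 2.03e-07) were lower. Summed basal, fibroblast and endothelial markers stayed at or below 1.09 FPKM in every library, and the immune markers summed to 9.86, 5.66 and 3.28 FPKM in shCdGAP and to 17.9, 13.2 and 13.2 FPKM in shCON.

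Of the 32 genes, 27 had enough reads to be tested and 5 did not. In shCdGAP cells 3 of the 27 were lower (Slc2a1, Hk1 and Pfkp), none was higher, and 24 did not pass. These encode a glucose transporter, a hexokinase and a phosphofructokinase; Hk2, Pfkl and Pfkm, of the same steps, did not pass. Genes called lower made up 11.1% of the 27, against a background of 11.1% of all 13483 tested genes. Called in either direction were also 11.1%, against 21.0%, and the background of genes called higher was 9.92%. The share of the 27 genes that was lower was thus the same as in the whole table. The median log2 difference of the 27 was -0.14, against -0.01 for all tested genes. Of the 27 values 19 were negative and 8 positive, against 6913 negative and 6570 positive of all 13483. No gene of the list was called higher over all 6 libraries, and 2 were called higher when shCdGAP replicate 1 was left out, Pfkfb3 and Ndrg1, together with 9 lower. That is 40.7% of the 27, against a background of 39.9% in the same fit. Under a block on the replicate number, 3 were higher (Pfkfb3, Ndrg1 and Ankrd37) and 3 lower, against a background of 18.2%.

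**Figure D1:**
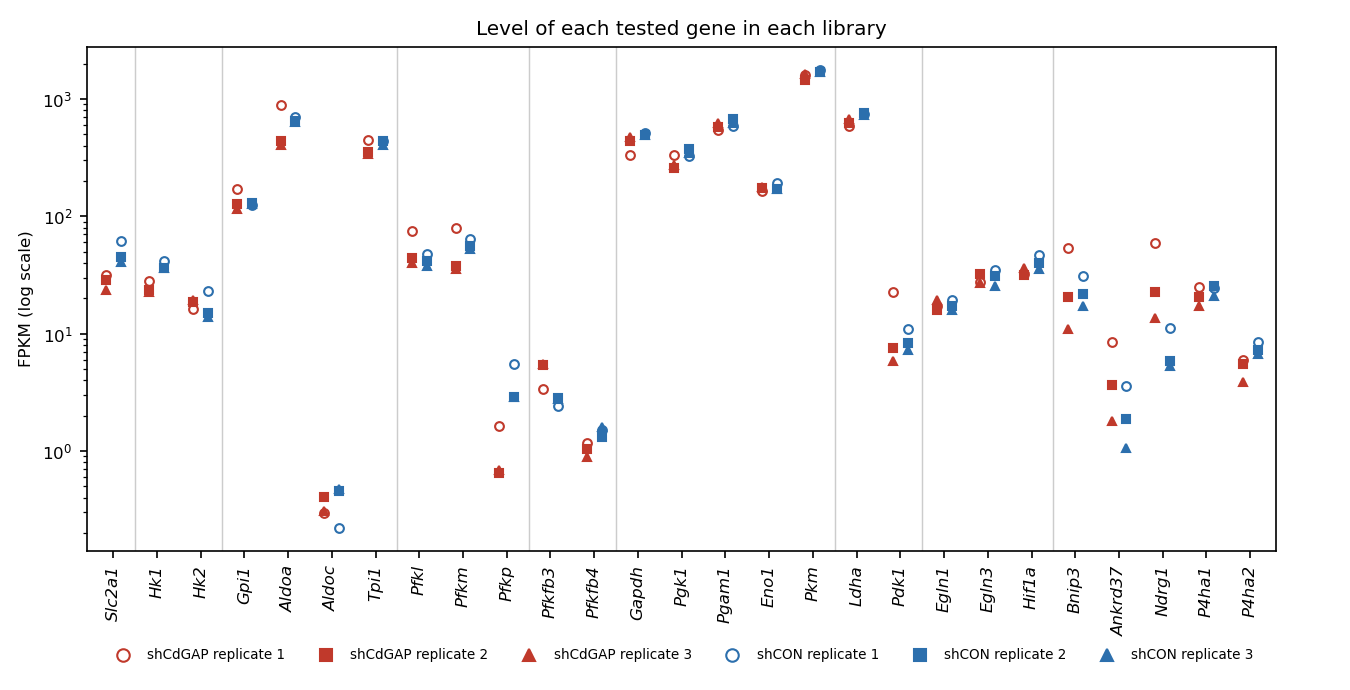
FPKM (log axis) of the 27 tested genes in each of the 6 libraries, shCdGAP in red left of shCON in blue for each gene, with open circles for the libraries numbered 1, squares for 2 and triangles for 3; vertical lines part the roles. Levels span from under 1 FPKM for Aldoc to 1453 and more for Pkm. The open red circle of shCdGAP replicate 1 lies well above its 2 partners for Aldoa, Pfkl, Pfkm, Pfkp, Pdk1, Bnip3, Ankrd37 and Ndrg1.

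Of the glucose transporters, the 32 genes include Slc2a1, and its transcript was lower in shCdGAP cells. Slc2a1 (chr4:119108711-119137983, plus strand, mm10) encodes GLUT1, the glucose transporter that HIF-1 and Myc both induce. It stood at 31.3, 28.9 and 23.4 FPKM in the shCdGAP libraries, against 61.5, 45.1 and 40.6 FPKM in the shCON libraries. Every shCdGAP library lay below every shCON library, and shCON replicate 1 was the highest of the 6. The means were 27.9 ± 4.09 FPKM in shCdGAP and 49.0 ± 11.0 FPKM in shCON (SD, n = 3 each), a ratio of 0.568. The log2 difference was -0.78 (SE 0.19, 95% confidence interval -1.25 to -0.32) with limma's adjusted p of 0.0351.

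Of the hexokinases, which trap glucose inside the cell as glucose 6-phosphate, the housekeeping form fell and the inducible form did not pass the test. Hk1 (chr10:62268855-62379908, minus strand) stood at 28.2, 23.6 and 22.8 FPKM in shCdGAP, against 41.8, 36.2 and 36.2 FPKM in shCON. Those ranges do not overlap, and the log2 difference was -0.60 (SE 0.12, interval -0.89 to -0.30) with limma's adjusted p of 0.0190. Hk2, the form that HIF-1 and insulin induce, stood at 16.1, 18.7 and 19.3 FPKM in shCdGAP and at 22.9, 14.9 and 13.9 FPKM in shCON (log2 difference 0.09, adjusted p 0.781). The library numbered 1 was the lowest in shCdGAP and the highest in shCON, and the groups overlapped. Without both libraries numbered 1, Hk2 was called higher, with a log2 difference of 0.38, as 1 of 12 genes of the list called in that fit, whose background is 48.3% of all tested genes. As a share of the summed FPKM of Hk1, Hk2, Hk3 and Hkdc1, Hk1 made up 63.3%, 55.6% and 53.9% in shCdGAP and 64.5%, 70.8% and 72.2% in shCON. Their sum averaged 43.1 ± 1.26 FPKM in shCdGAP and 55.4 ± 8.15 FPKM in shCON (SD, n = 3 each).

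Phosphofructokinase catalyses the first step unique to glycolysis, and of its 3 genes the least abundant one fell. Pfkp (platelet form; chr13:6579768-6648777, minus strand) stood at 1.63, 0.650 and 0.694 FPKM in shCdGAP, against 5.52, 2.90 and 2.88 FPKM in shCON. Both libraries numbered 1 were the highest of their group, and the groups did not overlap. Its log2 difference was -1.25 (SE 0.28, interval -1.93 to -0.57) with limma's adjusted p of 0.0269, and the ratio of means was 0.264. Its exons overlap those of Pitrm1 on the other strand, which stood at 36.9, 49.1 and 54.7 FPKM in shCdGAP and 33.2, 28.9 and 29.4 FPKM in shCON. How strand was handled is not given in the sources used here, and reads of the shared stretch cannot be assigned to either gene.

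Pfkl and Pfkm, the liver and muscle forms, carried nearly all of the phosphofructokinase transcript, and neither passed the test. Pfkl stood at 74.3, 43.7 and 40.2 FPKM in shCdGAP and at 47.5, 41.6 and 37.8 FPKM in shCON (log2 difference 0.26, adjusted p 0.50; -0.01 and 0.972 without shCdGAP replicate 1). Pfkm stood at 78.8, 37.6 and 35.2 FPKM in shCdGAP and at 64.0, 55.4 and 53.1 FPKM in shCON. Only shCdGAP replicate 1 lay above the shCON range. Over all 6 libraries the Pfkm log2 difference was -0.28 (adjusted p 0.583), and without shCdGAP replicate 1 it was -0.64 (adjusted p 0.00378); its exons overlap those of Senp1 on the other strand. Pfkp's share of the summed phosphofructokinase FPKM was 0.920 ± 0.132% in shCdGAP and 3.57 ± 0.999% in shCON (SD, n = 3 each), and Pfkl's share was 48.0%, 53.3% and 52.9% in shCdGAP against 40.6%, 41.6% and 40.3% in shCON. The summed level was 104 ± 43.8 FPKM in shCdGAP and 104 ± 12.1 FPKM in shCON.

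Fructose 2,6-bisphosphate, the strongest activator of phosphofructokinase, is made and broken down by the PFKFB enzymes, and of the 2 in the list neither passed the test over all 6 libraries, with differences of opposite sign. Pfkfb3, the form with the highest kinase activity and a target of HIF-1, stood at 3.39, 5.40 and 5.54 FPKM in shCdGAP, against 2.41, 2.82 and 2.75 FPKM in shCON. Every shCdGAP library lay above every shCON library. The log2 difference was 0.64 (SE 0.18, interval 0.20 to 1.07) and limma's adjusted p of 0.0525 missed the threshold. Blocking on the replicate number gave an adjusted p of 0.0454, and without shCdGAP replicate 1 the log2 difference was 0.82 with an adjusted p of 0.00105. In the authors' deposited table it was 0.82 with an adjusted p of 0.00465. Pfkfb4, a related form that HIF-1 also induces, stood at 1.17, 1.04 and 0.895 FPKM in shCdGAP and at 1.5, 1.32 and 1.60 FPKM in shCON, again without overlap (log2 difference -0.28, adjusted p 0.0898; -0.33 and 0.0307 without shCdGAP replicate 1). Of the summed FPKM of the 4 PFKFB genes, Pfkfb3 made up 38.5%, 54.5% and 57.9% in shCdGAP and 28.6%, 32.2% and 32% in shCON, while the sum itself was 9.43 ± 0.560 FPKM in shCdGAP and 8.60 ± 0.165 FPKM in shCON.

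**Figure D2:**
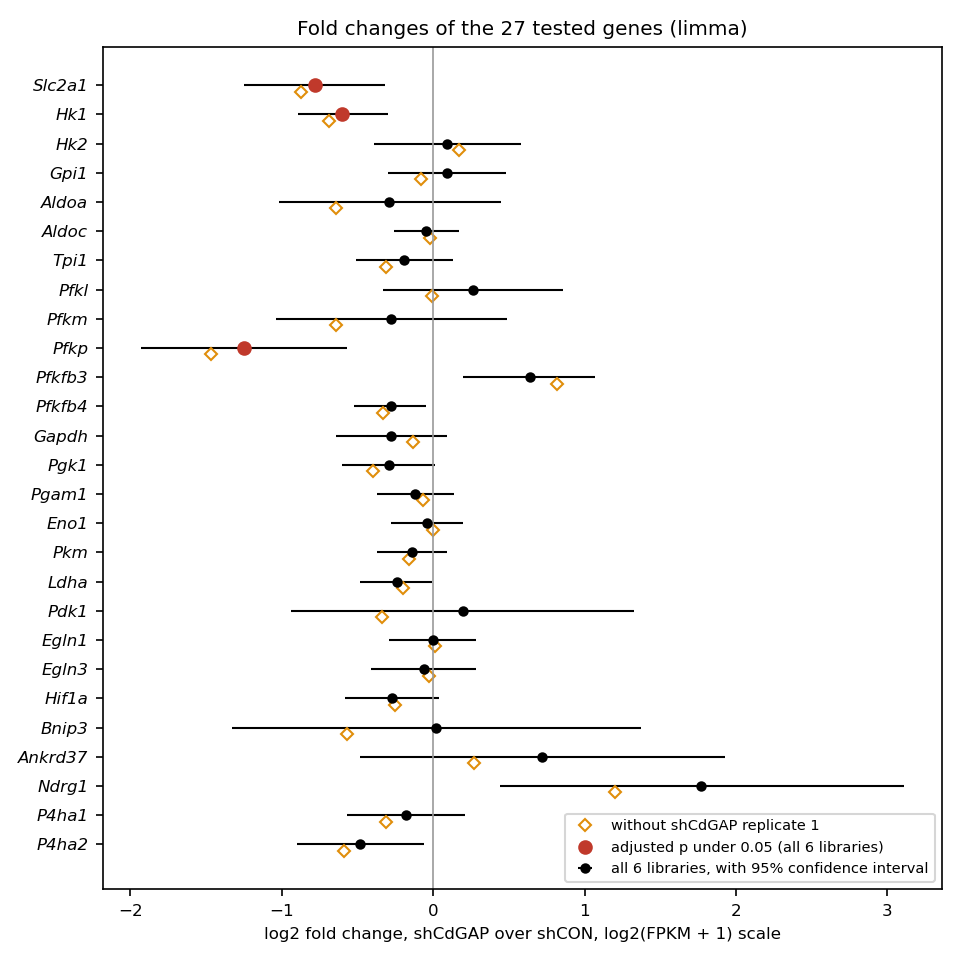
Log2 difference in log2(FPKM + 1), shCdGAP minus shCON, of the 27 tested genes with 95% confidence intervals, not adjusted for the number of genes; red marks the 3 called lower over all 6 libraries, and open diamonds give the value without shCdGAP replicate 1. Slc2a1, Hk1 and Pfkp lie left of 0 with intervals that leave it out, and so do Pfkfb4, Ldha and P4ha2, which were not called. Pfkfb3 and Ndrg1, also not called, lie right of 0 with intervals that leave it out. The diamonds of Aldoa, Pfkm, Pdk1, Bnip3, Ankrd37 and Ndrg1 lie well left of their points.

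The remaining enzymes that turn glucose 6-phosphate into triose phosphates did not pass the test. Gpi1, glucose 6-phosphate isomerase, stood at 171, 127 and 116 FPKM in shCdGAP and at 126, 130 and 127 FPKM in shCON (log2 difference 0.09, adjusted p 0.741; -0.08 and 0.464 without shCdGAP replicate 1). Aldoa, the main aldolase, stood at 883, 440 and 406 FPKM in shCdGAP and at 703, 644 and 632 FPKM in shCON. In shCdGAP replicates 2 and 3 Aldoa was below every shCON library, and in replicate 1 it was above all of them. Its log2 difference was -0.29 (adjusted p 0.555) over all 6 libraries and -0.64 (adjusted p 0.00273) without shCdGAP replicate 1. Tpi1, triose phosphate isomerase, followed with 447, 351 and 339 FPKM in shCdGAP and 439, 442 and 408 FPKM in shCON (log2 difference -0.19, adjusted p 0.374; -0.31 and 0.0252 without shCdGAP replicate 1); its exons overlap those of Spsb2 on the other strand. Aldoc, the brain-type aldolase, averaged 0.336 FPKM in shCdGAP and 0.383 FPKM in shCON and did not pass (adjusted p 0.760).

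The 5 tested enzymes from glyceraldehyde 3-phosphate to pyruvate all had negative differences and none passed. Their median log2 difference was -0.14. All 5 kept a negative sign when libraries were scaled by total reads or by a trimmed mean, but the sign could hardly turn there. These scalings moved the median of all genes down as well, by -0.0512 and -0.00969. Leaving out libraries turned Eno1 positive, at 0.05 without both libraries numbered 1 and 0.01 without shCON replicate 1. Gapdh, which oxidizes the triose phosphate and is often used as a reference gene, stood at 334, 437 and 477 FPKM in shCdGAP, against 510, 497 and 489 FPKM in shCON. The groups did not overlap (log2 difference -0.28, adjusted p 0.249). Pkm, pyruvate kinase and the most abundant of the 32 transcripts, stood at 1603, 1453 and 1622 FPKM in shCdGAP, against 1768, 1687 and 1685 FPKM in shCON, also without overlap (log2 difference -0.14, adjusted p 0.361). Pgk1, phosphoglycerate kinase and a classical HIF-1 target, stood at 330, 259 and 271 FPKM in shCdGAP and at 329, 376 and 344 FPKM in shCON. Its ranges overlapped through shCdGAP replicate 1, and without that library the log2 difference of -0.29 (adjusted p 0.160) was -0.40 (adjusted p 0.0147). Pgam1, phosphoglycerate mutase, and Eno1, the ubiquitous enolase, differed least, with log2 differences of -0.12 (adjusted p 0.481) and -0.04 (adjusted p 0.788). Gapdh, Pgk1, Pgam1, Eno1, Aldoa and Ldha have many near-identical pseudogene copies in the mouse, with which reads can be shared, and Eno1b, a copy of Eno1, averaged 79.1 FPKM in shCdGAP and 84.1 FPKM in shCON.

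Eno2, the neuronal enolase, had too few reads to be tested here. Its counts were 4, 2 and 0 reads in shCdGAP and 13, 10 and 12 reads in shCON, and the authors' deposited table gives a log2 fold change of -1.75 with an adjusted p of 0.0234. Summed over the 15 genes of the glycolytic steps themselves, transcript levels were 4675, 3947 and 4145 FPKM in shCdGAP and 4837, 4776 and 4624 FPKM in shCON. The ratio of the mean sums was 0.897, and shCdGAP replicate 1 lay within the shCON range.

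Pyruvate can become lactate through lactate dehydrogenase or enter the mitochondrion, a step that the kinase PDK1 blocks under hypoxia. Ldha, the form that favours lactate, stood at 588, 622 and 679 FPKM in shCdGAP, against 738, 761 and 733 FPKM in shCON, without overlap (log2 difference -0.24, adjusted p 0.134). Pdk1 stood at 22.5, 7.56 and 5.86 FPKM in shCdGAP and at 10.9, 8.33 and 7.32 FPKM in shCON. The library numbered 1 was the highest of each group, and shCdGAP replicates 2 and 3 lay within or below the shCON range (log2 difference 0.20, adjusted p 0.803; -0.34 and 0.159 without shCdGAP replicate 1). Ldhb, the heart-type dehydrogenase, had 17, 5 and 2 reads in shCdGAP and 1, 4 and 5 reads in shCON and was not tested. Slc16a3, the lactate exporter MCT4, had 0 reads in all 6 libraries, which allows up to 3 reads per library, or 0.112 to 0.156 CPM (reads scaled to the library total).

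The oxygen sensors and HIF-1α itself did not pass the test. Hif1a stood at 32.5, 31.9 and 36.2 FPKM in shCdGAP and at 46.6, 40.0 and 35.8 FPKM in shCON (log2 difference -0.27, adjusted p 0.192). The groups overlapped by 1 library, shCdGAP replicate 3 against shCON replicate 3, and HIF-1 activity is set mainly by the protein's stability, which RNA levels do not measure. Egln1 and Egln3, the prolyl hydroxylases, had log2 differences of -0.00 (adjusted p 0.987; 0.01 and 0.969 without shCdGAP replicate 1) and -0.06 (adjusted p 0.788). Together with Egln2 they summed to 62.6 ± 0.871 FPKM in shCdGAP and 63.9 ± 6.0 FPKM in shCON (SD, n = 3 each).

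Of the 7 hypoxia target genes outside glycolysis, 5 were tested and none passed over all 6 libraries. Ndrg1 (chr15:66929318-66969640, minus strand), a stress-induced gene known to restrain invasion, had the largest log2 difference of the 27 over all 6 libraries on the log2(FPKM + 1) scale, and Pfkp one larger in size, and negative, without shCdGAP replicate 1 or by limma-voom. Ndrg1 stood at 59.4, 22.8 and 13.5 FPKM in shCdGAP, against 11.1, 5.82 and 5.35 FPKM in shCON. Even the lowest shCdGAP library lay above the highest shCON library, but the shCdGAP values were spread widely. The mean was 31.9 ± 24.3 FPKM in shCdGAP and 7.41 ± 3.18 FPKM in shCON (SD, n = 3 each), a ratio of 4.30, and the log2 difference was 1.77 (SE 0.55, interval 0.44 to 3.11) with limma's adjusted p of 0.0699. Blocking on the replicate number gave an adjusted p of 0.0193. Without shCdGAP replicate 1 the log2 difference was 1.20 (adjusted p 0.0271), without shCdGAP replicate 3 it was 2.23 (adjusted p 0.0389), and in the authors' deposited table it is 1.81 (adjusted p 0.00138). Leaving out any of the other 4 libraries gave log2 differences of 1.60 to 2.06 that did not pass, with adjusted p-values of 0.107 to 0.207.

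Bnip3, a mitophagy receptor, and Ankrd37, a small ankyrin-repeat protein, are strongly induced by hypoxia in many cell types. Bnip3 stood at 53.2, 20.4 and 10.9 FPKM in shCdGAP and at 31.1, 21.7 and 17.2 FPKM in shCON, and its log2 difference was 0.02 with a wide interval of -1.33 to 1.37. Its sign turned with the library left out, at -0.57 (adjusted p 0.184) without shCdGAP replicate 1 and 0.52 (adjusted p 0.459) without shCdGAP replicate 3. Ankrd37 stood at 8.42, 3.67 and 1.81 FPKM in shCdGAP and at 3.58, 1.89 and 1.07 FPKM in shCON. In each group the library numbered 1 was the highest and the library numbered 3 the lowest for both genes, and the groups overlapped. For Ankrd37 the log2 difference was 0.72 (SE 0.50) with an adjusted p of 0.361, which was 0.0458 under the replicate block, and without shCdGAP replicate 1 it was 0.27 (adjusted p 0.587); its exons overlap those of Ufsp2 on the other strand, at 16.8, 13.2 and 15.3 FPKM in shCdGAP and 12.5, 11.4 and 11.1 FPKM in shCON.

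P4ha1 and P4ha2 encode the catalytic subunits of collagen prolyl 4-hydroxylase, and the second was the one whose groups did not overlap. P4ha2 stood at 6.01, 5.54 and 3.86 FPKM in shCdGAP, against 8.55, 7.20 and 6.72 FPKM in shCON (log2 difference -0.48, adjusted p 0.104; -0.59 and 0.0259 without shCdGAP replicate 1). P4ha1 stood at 25.0, 20.5 and 17.2 FPKM in shCdGAP and at 24.7, 25.6 and 20.8 FPKM in shCON (log2 difference -0.18, adjusted p 0.477). Car9, the tumor carbonic anhydrase that is among the most sensitive HIF-1 targets, had 4, 1 and 1 reads in shCdGAP and 2, 3 and 2 reads in shCON. Adm, the vasodilator adrenomedullin, had 1, 0 and 0 reads in shCdGAP and 1, 1 and 2 reads in shCON. Both were at the limit of detection in every library and were not tested.

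Groups did not overlap for 10 of the 27 genes, 2 with shCdGAP higher (Pfkfb3 and Ndrg1) and 8 with shCdGAP lower. This is 37.0% of the tested genes of the list, against a background of 44.1% of all tested genes.

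For many of these genes the libraries numbered 1 lay apart from the others of their group. The library numbered 1 was the highest of both groups for 11 of the 27 genes (40.7%), against 26.6% of all tested genes, and for 19 of 30 other hypoxia targets (63.3%). In shCdGAP, replicate 1 was at least 1.5-fold above the mean of replicates 2 and 3 for 8 of the 27 genes (29.6%), against 20.9% of all tested genes, and for 18 of the 30 other hypoxia targets (60.0%). The 8 genes held the 3 phosphofructokinases, Aldoa, Pdk1, Bnip3, Ankrd37 and Ndrg1. Replicate 1 over the mean of replicates 2 and 3 was 3.40-fold for Bnip3 in shCdGAP and 1.59-fold in shCON. For Pdk1 it was 3.36-fold in shCdGAP and 1.39-fold in shCON, and for Ndrg1 3.27-fold in shCdGAP and 1.98-fold in shCON. For Aldoa it was 2.09-fold in shCdGAP and 1.10-fold in shCON. Slc2a1 and Hk1 were not among the 8, and Pfkfb3 ran the other way, at 0.620-fold in shCdGAP and 0.865-fold in shCON.

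The same library also differed in a proliferation marker, Mki67, which was chosen after its values were seen. Mki67 stood at 4.36, 72.0 and 67.7 FPKM in shCdGAP and at 27.3, 40.3 and 40.2 FPKM in shCON, so that both libraries numbered 1 were the lowest of their group. The part of culture density, oxygen or proliferation in the levels given here was not tested, and the labels give none of them.

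**Figure D3:**
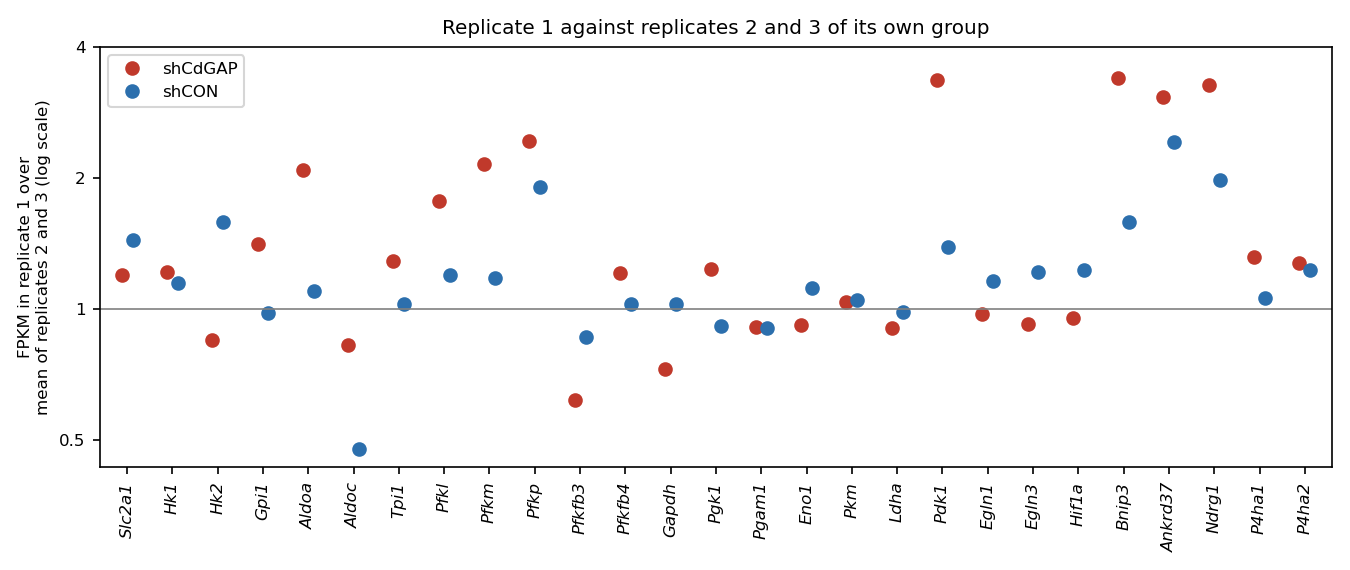
Fold of replicate 1 over the mean of replicates 2 and 3 within each group (log axis) for the 27 tested genes, shCdGAP in red and shCON in blue. Bnip3, Pdk1, Ndrg1 and Ankrd37 have the highest shCdGAP folds, at 3.07 to 3.40, and Pfkfb3 and Gapdh the lowest, at 0.620 and 0.731. Hk2, Aldoc, Pgam1, Eno1, Ldha, Egln1, Egln3 and Hif1a also lie below 1 in shCdGAP.

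The other genes of the pathways were read from lists of related genes. Of 21 other glycolysis genes 20 were found in the table by name and 12 were tested. Over all 6 libraries 1 was lower in shCdGAP and none higher, against 1 lower and 1 higher under the replicate block, and 4 lower and 2 higher without shCdGAP replicate 1. The 1 of 12 genes called over all libraries (8.33%) compares with 21.0% of all tested genes, and the 6 of 12 without shCdGAP replicate 1 with 39.9%. The gene that the block added is Slc2a2, the transporter GLUT2, named here after its values were seen. It stood at 0.826, 3.58 and 4.21 FPKM in shCdGAP and at 0.320, 1.37 and 1.37 FPKM in shCON (log2 difference 0.85, adjusted p 0.245), with an adjusted p of 0.0390 under the block and 0.00976 without shCdGAP replicate 1. The library numbered 1 was the lowest of each group. Eno3 (the muscle form of enolase; chr11:70657202-70662513, plus strand) stood at 20.7, 24.7 and 25.4 FPKM in shCdGAP, against 147, 165 and 166 FPKM in shCON. The groups were far apart and each was tight, with a log2 difference of -2.71 (SE 0.12) and an adjusted p of 9.12e-05. Eno3 made up 11.3%, 12.3% and 12.5% of the summed FPKM of Eno1, Eno2 and Eno3 in shCdGAP, against 43.4%, 49.0% and 49.5% in shCON. That sum, which leaves out Eno1b, was 196 ± 10.8 FPKM in shCdGAP and 337 ± 1.54 FPKM in shCON (SD, n = 3 each). Most of the difference in this sum was in Eno3.

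**Figure D4:**
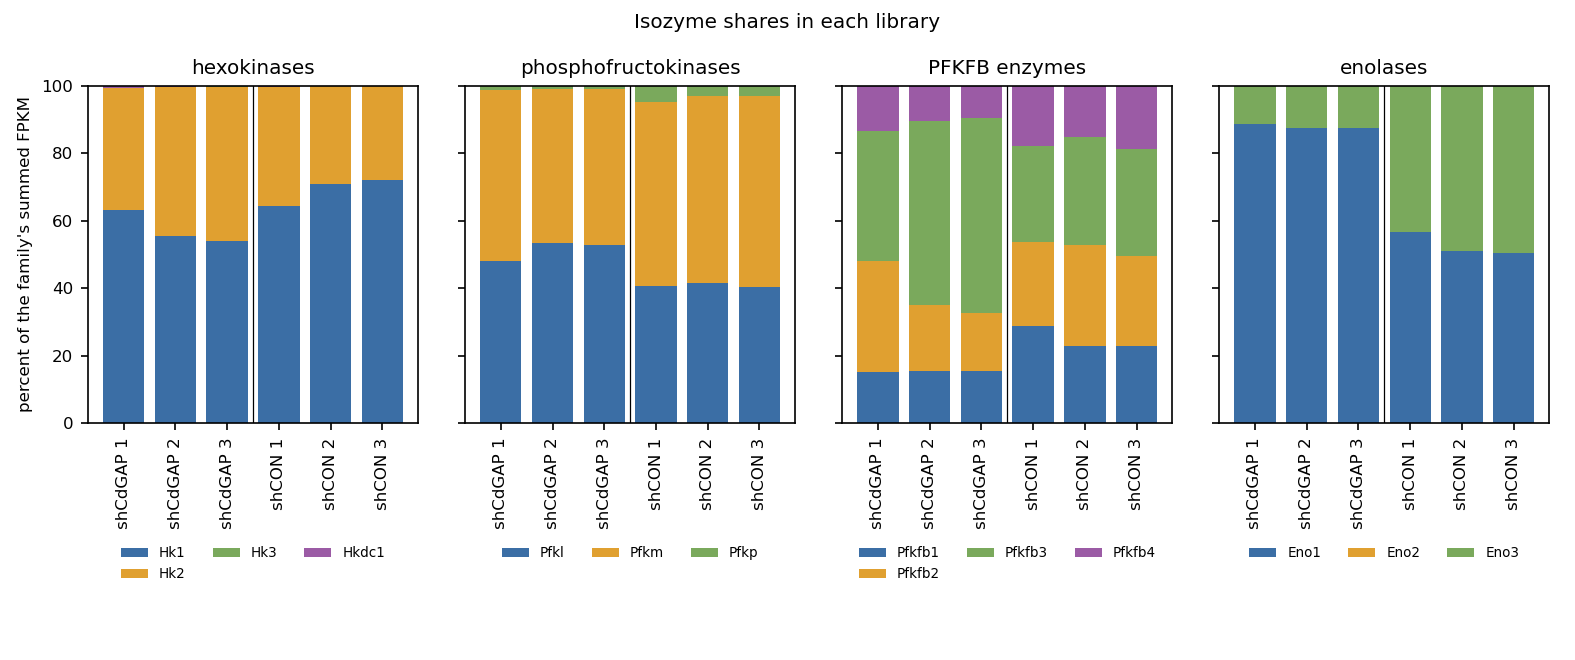
Share of each isozyme, in percent of its family's summed FPKM, in each library, shCdGAP left of shCON, for the hexokinases, phosphofructokinases, PFKFB enzymes and enolases (Eno1, Eno2 and Eno3, without Eno1b). Hk3, Hkdc1 and Eno2 are too low to be seen. The Eno3 share is 11.3% to 12.5% in shCdGAP and 43.4% to 49.5% in shCON, and the Pfkfb3 share is 38.5% to 57.9% in shCdGAP and 28.6% to 32.2% in shCON.

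Of 12 tested genes of pyruvate entry into mitochondria, 2 were higher and 2 lower, 33.3% against the background of 21.0%. Mpc1, a subunit of the mitochondrial pyruvate carrier, stood at 15.5, 15.5 and 15.7 FPKM in shCdGAP, against 5.47, 6.58 and 6.73 FPKM in shCON (log2 difference 1.20, adjusted p 9.62e-04). Mpc2, the other subunit, stood at 8.84, 7.83 and 7.65 FPKM in shCdGAP, against 5.62, 6.19 and 6.03 FPKM in shCON (log2 difference 0.39, adjusted p 0.0404, which was 0.0833 under the replicate block). Both subunits of the carrier were thus higher in shCdGAP cells. Pcx, pyruvate carboxylase, which turns pyruvate into oxaloacetate, was lower at 2.69, 2.55 and 2.49 FPKM in shCdGAP, against 4.75, 5.18 and 5.50 FPKM in shCON (log2 difference -0.78, adjusted p 0.00361). Pdk3, a relative of Pdk1 that likewise inhibits pyruvate dehydrogenase, was lower at 4.23, 5.03 and 5.27 FPKM in shCdGAP, against 8.0, 7.34 and 6.95 FPKM in shCON (log2 difference -0.53, adjusted p 0.0229, which was 0.0615 under the replicate block).

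In the routes that branch from glucose 6-phosphate, 1 gene of each list was lower, 12.5% of the pentose phosphate genes and 11.1% of those of glycogen and gluconeogenesis, against a background of 11.1% of all tested genes called lower. Of 8 pentose phosphate genes, G6pdx, the dehydrogenase that opens the pathway, averaged 42.9 ± 4.58 FPKM in shCdGAP and 61.4 ± 6.94 FPKM in shCON (SD, n = 3 each). Its log2 difference was -0.51 with an adjusted p of 0.0388, which was 0.0834 under the replicate block, and its exons overlap those of Ikbkg on the other strand. Of 9 tested genes of glycogen and gluconeogenesis, Gbe1, the glycogen branching enzyme, averaged 2.33 ± 0.0568 FPKM in shCdGAP and 4.67 ± 0.129 FPKM in shCON (log2 difference -0.77, adjusted p 0.00272). Of 10 tested genes of the Myc and glucose-sensing network, Mlx, the partner of the glucose sensors ChREBP and MondoA, averaged 19.6 ± 1.88 FPKM in shCdGAP and 28.0 ± 1.26 FPKM in shCON (log2 difference -0.49, adjusted p 0.0223), the 1 gene of that list called, against the same background. Mlx overlaps Psmc3ip on the other strand.

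Of 11 tested partners and regulators of HIF, 1 was higher (9.09%), against a background of 9.92% called higher. Tceb2, elongin B of the VHL ubiquitin ligase, averaged 266 ± 20.5 FPKM in shCdGAP and 192 ± 7.0 FPKM in shCON (log2 difference 0.46, adjusted p 0.0234, which was 0.0555 under the replicate block), and its exons overlap those of Srrm2 on the other strand.

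Among 30 tested hypoxia targets outside the 32 genes, 2 were higher and 6 lower, 26.7% against the background of 21.0%, and their median log2 difference was -0.01. Under the replicate block 4 were higher and 8 lower, 12 of 30, against a background of 18.2%, and without shCdGAP replicate 1 the share called was 36.7%, against 39.9%. Edn1, the vasoconstrictor endothelin-1, stood at 5.43, 7.44 and 7.97 FPKM in shCdGAP, against 0.133, 0.341 and 0.207 FPKM in shCON (log2 difference 2.68, adjusted p 2.52e-04). Angptl4, a secreted inhibitor of lipoprotein lipase, stood at 2.56, 5.56 and 6.41 FPKM in shCdGAP, against 23.8, 26.5 and 26.9 FPKM in shCON (log2 difference -2.26, adjusted p 0.00349). Edn1 and Angptl4 differed in opposite directions, and the part of HIF in either was not tested. Plod2, a collagen lysyl hydroxylase, stood at 11.7, 11.8 and 10.2 FPKM in shCdGAP, against 31.1, 26.0 and 23.7 FPKM in shCON (log2 difference -1.19, adjusted p 0.00232). Car12, a carbonic anhydrase related to Car9, averaged 0.0163 FPKM in shCdGAP and 0.400 FPKM in shCON (log2 difference -0.46, adjusted p 0.00131). The calls of Eno3, Mpc1, Pcx, Gbe1, Edn1, Angptl4, Plod2 and Car12 held when any 1 of the 6 libraries was left out. Mpc2 and Tceb2 were called in 1 of these 6 fits and Pdk3, G6pdx and Mlx in 2, with highest adjusted p-values of 0.140 for Mpc2, 0.112 for Tceb2, 0.0988 for Pdk3, 0.126 for G6pdx and 0.111 for Mlx. The calls of Slc2a1, Hk1 and Pfkp held without shCdGAP replicate 1, with adjusted p-values of 0.0120, 0.00186 and 0.00409. Without any 1 of the other 5 libraries they were lost, with adjusted p-values of 0.0601 to 0.102 for Slc2a1, 0.0555 to 0.0792 for Hk1 and 0.0642 to 0.0953 for Pfkp, while their log2 differences stayed between -0.90 and -0.61, -0.69 and -0.53, and -1.47 and -1.0.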

How the data were processed

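Total RNA of 6 libraries, 3 shCdGAP and 3 shCON, was sequenced on an Illumina HiSeq instrument, per the labels. The tools named in the submitters' processing notes, used by the authors, are Trimmomatic, TopHat2 2.0.13, featureCounts and DESeq2, and the build is mm10. Neither the annotation release nor how strand was handled is given in the sources used here. The authors deposited 1 table, with FPKM for each library, which the recovered reads show to be scaled by size factors. The authors' DESeq2 columns beside it, shCdGAP over shCON per the file headers, give the mean signal (baseMean), log2 fold change, test score, p-value and adjusted p-value of each gene. The design allowed for whole-number counts, but the values are FPKM, and limma was used as planned for that case.

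Whole reads were recovered from the FPKM values (tolerance 1e-06, relative) and served for depth, the filter and limma-voom. The filter asked for 10 or more depth-scaled reads in 3 or more libraries and 15 or more in total, and 13483 genes passed. R 4.3.3 and limma 3.58.1 fitted log2(FPKM + 1) on the group, with trended, robust variance. Tests were 2-sided at an adjusted p of 0.05 and were tested on simulated data. The simulated libraries took their spread from shCON only, and none was made to stand apart as shCdGAP replicate 1 does. The simulation therefore does not give the error rate in these data. Intervals cover 95%. Whole-read limits cover counting error only. Positions are those of GENCODE M21 on the same build. Alternatives were library-size and trimmed-mean scaling, limma-voom, a mean of 5 CPM, no filter, a pseudocount of 0.1, the replicate block, leaving out libraries, and the authors' test.

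Deviations from the group mean of same-numbered libraries correlated at 0.43, 0.39 and 0.34, and those of shCdGAP 2 with shCON 3 and of shCdGAP 3 with shCON 2 at 0.35 and 0.27, so that the libraries numbered 1 stand apart while 2 and 3 are not told from each other. On these values alone, with nothing in the labels, the replicate number was used as a block in an alternative fit. The main fit has no block and treats the libraries as unpaired. The 32 genes and all lists were chosen with earlier results of these data known. All 32 genes are named; of each other list, up to 4 changed genes with the smallest p. Some genes of the planned lists are not reported here.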

Additional observations from a re-analysis of the deposited data

How the results depend on the processing

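Of the log2 differences of the 27 tested genes, none changed sign while called; under the alternatives 362 values kept their side of the threshold, 24 came to pass it and 16 lost it. The count of changed genes among the 32, 3 over all libraries, was 0 to 11 when 1 library was left out (11 without shCdGAP replicate 1, 1 without shCdGAP replicate 3, 0 without any other), 6 with the replicate block, 12 without both libraries numbered 1 and 6 in the authors' deposited table. The share of all genes called moved as well. It was 39.9% without shCdGAP replicate 1, 15.9% without shCdGAP replicate 3 and 9.17% to 12.8% without any other library. With the replicate block it was 18.2%, and without both libraries numbered 1 it was 48.3%. The same ranges with 1 library left out were 1 to 6 for other glycolysis genes, 2 to 5 for pyruvate entry, 0 to 3 for the pentose phosphate pathway, 1 to 3 for glycogen and gluconeogenesis, 0 to 2 for the HIF system, 6 to 11 for other hypoxia targets, 0 to 3 for Myc and glucose sensing and 1237 to 5373 for all genes. Without both libraries numbered 1 these counts were 8, 7, 4, 2, 3, 15, 4 and 6506 in the same order. They are out of 12, 12, 8, 9, 11, 30, 10 and 13483 tested genes. Other glycolysis genes called, 1 over all libraries, numbered 3 by limma-voom, 4 in the authors' table, and 2 each with library-size scaling, no filter, a pseudocount of 0.1 and the replicate block. That table gave 3 for the pentose phosphate pathway, 3 for glycogen and gluconeogenesis and 2 for Myc and glucose sensing. Of the 16970 genes with an adjusted p in the authors' table, 23.8% were called. This is the background for all of its counts given here, the 6 of the 32 genes included. The pentose phosphate count was 0 with no filter, and the HIF system count was 0 with the replicate block. The block changed no call of the 32 genes besides Pfkfb3, Ndrg1 and Ankrd37, which it added. Slc2a1 did not pass with no filter (adjusted p 0.0573), where more genes are tested; the cause of the other changes was not tested. Scaling by total reads moved the median of all genes by -0.0512 and the split of calls to 1112 higher and 1705 lower, against 1337 and 1501; limma-voom gave 1171 and 1808, and a mean of 5 CPM 1038 and 922. Depth limits Eno2, Ldhb, Car9, Adm and Slc16a3, which were not tested.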
